A study of Mus musculus with 4 samples.

Results

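The genes described here are 9 of the heme pathway, Alas1, Alas2, Alad, Uros, Urod, Cpox, Ppox, Fech, and Slc25a38, taken by name from the 32285 genes of 4 droplet scRNA-seq libraries. Their levels were measured in erythroid barcodes, which were barcodes with at least 1000 genes and at most 10% mitochondrial UMIs in which at least 3 of Klf1, Car1, Ermap, and Rhag were detected. 4717 of 16261 barcodes that passed the filters were erythroid. BM and spleen of control mice (CBM and CS) and of tumor-bearing mice (TBM and TS) gave 1 library each. Where 4 values stand in a row without library names they are in the order CBM, TBM, CS, TS. All came from C57BL/6J mice of 8 to 16 weeks, which the methods give as female unless otherwise stated. The tumor-bearing mice carried PyMT-B6, a line of polyomavirus middle T antigen mammary tumor cells that the methods describe as injected under the skin of the flank, and the number of mice behind each library is not given in the sources used here. Lineage-positive cells were depleted, and c-Kit+ cells with or without Sca-1 and CD45- cells were sorted and mixed at equal ratios, so a share of barcodes is a share of this mixture and not of the tissue, and c-Kit+ cells are enriched. With 1 library for each group no test was possible, and each interval below is an exact 95% interval that covers counting error only.

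Erythroid barcodes numbered 217 for CBM (6.21% of 3497), TBM 203 (4.68% of 4340), CS 1373 (42.4% of 3236), and TS 2924 (56.4% of 5188), with total library depths of 101811035 to 176094297 UMIs. The rule counts detected markers, and applied after each barcode was thinned to 3000 UMIs it kept 87, 97, 321, and 865 barcodes. Genes that the rule did not use were checked against the erythroid label. Gata1, the transcription factor that drives erythroid differentiation, was at 115, 110, 94.0, and 82.8 CPM in erythroid barcodes (UMIs of the gene per 1000000 UMIs of the same barcodes, with 1 UMI for each captured transcript end and so no correction for length), and Tfrc, the transferrin receptor that brings iron into the cell, at 512, 667, 210.0, and 237.5. Free RNA, the RNA of barcodes with at most 100 UMIs, held Gata1 at 20.6, 13.55, 57.4, and 64.3 and Tfrc at 73.5, 93.5, 89.2, and 149. The 4 markers of the rule itself summed to 129, 119, 2116, and 2225 CPM in free RNA. In erythroid barcodes they summed to 2038, 2764, 3299, and 3592. Free RNA of the spleen libraries was thus rich in these markers, and how many barcodes met the rule through it was not tested. In the other classes with at least 50 barcodes Tfrc was below the erythroid level of the same library, as was Gata1 (0 to 52.0) with the exception of TS megakaryocyte barcodes (83.2). Median depth was 15608, 14303, 48010, and 34333 UMIs, so spleen barcodes were deeper. Fewer cells of a stage and less RNA per cell cannot be told apart in levels summed over barcodes. Of the erythroid barcodes, 107, 133, 153, and 314 also met the marker rule of another cell class. 4 granulocyte-monocyte progenitor markers (Elane, Prtn3, Ctsg, and Ms4a3) were detected in the erythroid barcodes of each library and summed to 515, 705, 76.8, and 203 CPM, against 7381, 9671, 1902, and 2377 in free RNA. Their part in the results was not tested, and the levels of the members that go with them are given with Alas1 below. 27 barcodes that passed the filters occurred in more than 1 library, 0 to 6 of them erythroid in a library, and leaving them out moved none of the ratios out of its interval.

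Heme is made partly in the mitochondrion and partly in the cytosol. ALA synthase joins glycine, which the carrier SLC25A38 is thought to bring into the mitochondrion, to succinyl-CoA and so commits the cell to the pathway. ALAS1 is the form found in most cells, and ALAS2 is the erythroid form, whose mRNA is translated when iron is at hand. ALAD, UROS, and UROD carry the product through porphobilinogen and uroporphyrinogen in the cytosol. CPOX and PPOX then carry out oxidation steps in and at the mitochondrion, and FECH inserts iron. Red cell precursors make more heme than any other cell, and developing erythroid cells switch from ALAS1 to ALAS2.

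Promoter sequences are shown first, for Alas2 and Alas1 because they encode the erythroid and the housekeeping form of the same enzyme, for Cpox because it had the highest summed level of the members in each library, and for Uros because RefSeq gives it starts in different parts of the gene. RefSeq windows (build GRCm38.p6) were used for 8 of the 9 members, all but Fech, and 11 starts. In each line the 250 bases before a start are written 5′ to 3′ on the strand of the gene. Capitals mark matches on either strand to a GATA motif (AGATAA or AGATAG or TGATAA or TGATAG) or to a KLF-type motif (CCNCNCCC), and matches can overlap.
Alas2, chrX:150547167-150547416, + strand: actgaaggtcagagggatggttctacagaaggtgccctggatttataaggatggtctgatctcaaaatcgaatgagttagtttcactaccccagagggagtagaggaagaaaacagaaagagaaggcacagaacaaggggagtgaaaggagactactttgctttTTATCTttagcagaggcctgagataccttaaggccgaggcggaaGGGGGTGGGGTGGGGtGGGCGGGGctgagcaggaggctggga
Cpox, chr16:58669958-58670207, + strand: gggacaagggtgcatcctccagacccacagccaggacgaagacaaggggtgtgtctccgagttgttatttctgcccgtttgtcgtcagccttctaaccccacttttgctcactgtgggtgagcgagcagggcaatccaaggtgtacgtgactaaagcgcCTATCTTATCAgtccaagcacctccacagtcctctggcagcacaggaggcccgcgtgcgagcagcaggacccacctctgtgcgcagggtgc
Uros, the upstream start, chr7:133709296-133709545, - strand: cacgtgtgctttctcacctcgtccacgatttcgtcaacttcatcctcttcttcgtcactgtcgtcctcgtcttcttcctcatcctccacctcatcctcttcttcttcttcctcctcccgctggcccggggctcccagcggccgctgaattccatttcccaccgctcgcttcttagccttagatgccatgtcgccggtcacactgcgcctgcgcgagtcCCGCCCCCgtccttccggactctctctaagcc
Uros, the internal start, chr7:133702501-133702750, - strand: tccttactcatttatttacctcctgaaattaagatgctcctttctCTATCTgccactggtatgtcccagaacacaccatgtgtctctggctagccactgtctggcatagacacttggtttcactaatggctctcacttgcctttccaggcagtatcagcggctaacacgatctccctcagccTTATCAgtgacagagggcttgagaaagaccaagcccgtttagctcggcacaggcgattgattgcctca
Alas1, the upstream start, chr9:106247955-106248204, - strand: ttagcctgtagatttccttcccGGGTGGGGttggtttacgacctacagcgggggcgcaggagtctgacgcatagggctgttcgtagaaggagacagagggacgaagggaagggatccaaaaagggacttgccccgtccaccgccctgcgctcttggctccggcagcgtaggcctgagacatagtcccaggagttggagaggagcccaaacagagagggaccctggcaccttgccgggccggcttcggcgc
The Alas2 window held 1 GATA match, 86 bases before the start, and 4 KLF-type matches in the last 42 bases. The Cpox window held 2 GATA matches that share a base, at 91 and 86 bases before the start. The internal start of Uros had 2 GATA matches, and its upstream start had none. Neither Alas1 start had a GATA match, and 3 of the 11 member windows had one, against 26.5% of 32851 windows of the same length. The windows not printed, those of Alad, Urod, Ppox, Slc25a38, and the other Alas1 start, held no GATA match. A KLF-type match was present in 7 of the 11 member windows and in 45.9% of all windows. These matches lay in Alas1, Alas2, Alad, Uros, and Slc25a38. The Alad windows overlap and share matches, and the Alas1 windows also overlap, so the 11 windows are not independent. Counts at the 3′ end of a transcript do not tell which start was used, so the Uros levels below sum both.

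The genes lie on chromosomes 9 (Alas1, 106233455 to 106248654, and Slc25a38, 120110374 to 120124504), X (Alas2, 150547375 to 150570638), 4 (Alad, 62509169 to 62519918, and Urod, 116989965 to 116994413), 7 (Uros, 133686243 to 133710072), 16 (Cpox, 58670292 to 58717636), 1 (Ppox, 171275990 to 171281186), and 18 (Fech) in the GENCODE vM21 annotation of GRCm38. No member overlapped another gene on its own strand. The opposite strand held genes that overlapped Alas1, Alas2, Uros, Cpox, and Ppox, and the 3′ libraries keep strand.

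Over all erythroid barcodes, heme genes were higher in BM than in spleen, and differed less between tumor-bearing and control libraries. The rate-limiting erythroid gene Alas2 was at 217 CPM in CBM (interval 203.5 to 231), 235 in TBM (221 to 250.5), 12.5 in CS (11.7 to 13.4), and 3.57 in TS (3.21 to 3.96). BM libraries were thus far above spleen libraries, and CS above TS. The housekeeping gene Alas1 was at 16.7, 16.7, 14.4, and 17.0 CPM. Its intervals lay apart between CS (13.5 to 15.3) and TS (16.2 to 17.8) and overlapped for every other pair, and all 4 levels were below the 120, 146, 32.8, and 42.7 CPM of Alas1 in free RNA. Slc25a38, the glycine carrier, was at 59.95, 59.55, 26.1, and 25.3.

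The cytosolic enzymes followed the same order of tissues. Alad, which condenses ALA to porphobilinogen, was at 271.5, 338.5, 153, and 161 CPM. Uros, which closes the ring, was at 74.3, 74.6, 17.7, and 14.3. Urod, which trims its side chains, was at 189, 241, 90.1, and 102. In all 3 genes both BM libraries were above both spleen libraries.

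Among the mitochondrial enzymes, Cpox was at 498, 736, 206.5, and 216.5 CPM. Ppox was at 68.4, 91.9, 18.2, and 16.7. Fech, the iron-inserting last enzyme, was at 228, 348, 59.8, and 70.6. TBM was the highest library for all 3, and the intervals of TBM and CBM did not overlap for any of them. The 9 members summed to 1623, 2141, 599, and 627 CPM.

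**Figure D1:**
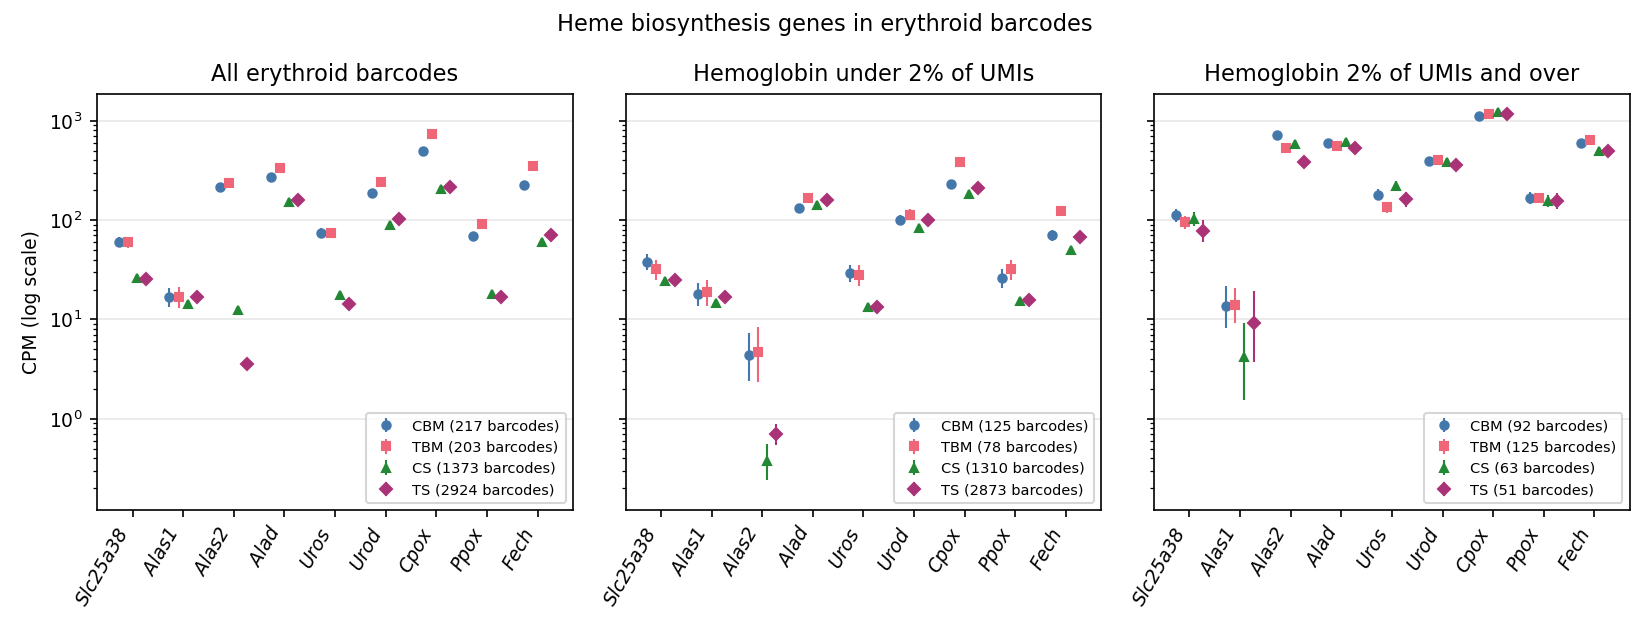
CPM (log axis) of the 9 heme genes in erythroid barcodes of CBM, TBM, CS, and TS, for all erythroid barcodes, those with under 2% of UMIs from adult globins, and those with 2% and over; bars are exact 95% Poisson intervals of the counts. The libraries lie apart in the panel of all barcodes, with Alas2 between 3.57 and 235, and closer together at 2% and over, with Alas2 between 388 and 713. Alas1 is the exception, at 14.4 to 17.0 over all barcodes and 4.18 to 14.1 at 2% and over.

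The libraries differed in how far their erythroid barcodes had filled with hemoglobin. The share of UMIs from Hba-a1, Hba-a2, Hbb-bt, and Hbb-bs, the adult globin genes, was used as a scale of maturation, and barcodes were divided at 2%, which cuts a continuous share. Between 1% and 4% lay 8, 15, 4, and 20 erythroid barcodes. At 2% and over were 92 of 217 CBM barcodes (42.4%, interval 35.7 to 49.3), 125 of 203 TBM barcodes (61.6%, 54.5 to 68.3), 63 of 1373 CS barcodes (4.59%, 3.54 to 5.83), and 51 of 2924 TS barcodes (1.74%, 1.30 to 2.29). Nearly all spleen erythroid barcodes were therefore hemoglobin-poor. These shares are of cells left after lineage depletion and sorting, so they do not measure how mature the erythroid cells of the tissue were. Globin made 0.960, 1.15, 0.767, and 0.280% of free RNA, below the division in every library.

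Every member but Alas1 was higher in hemoglobin-rich barcodes in all 4 libraries. Alas2 was at 4.34, 4.67, 0.375, and 0.704 CPM in barcodes under 2%, and at 713, 530, 577, and 388 at 2% and over. The values under 2% came from 14, 11, 25, and 71 UMIs and were below the 15.0, 17.8, 6.32, and 5.82 CPM of Alas2 in free RNA. Stem and progenitor barcodes, which should lack Alas2, had it at 0.331, 0.929, 0, and 0.143 CPM from 2, 4, 0, and 1 UMIs, and how much of the level under 2% was free RNA was not tested. Alas2 was thus close to absent below the division and high above it. The log2 ratio of the range at 2% and over to the range under 2% was 7.36 in CBM (6.61 to 8.24), 6.83 in TBM (5.98 to 7.83), 10.59 in CS (10.02 to 11.22), and 9.11 in TS (8.73 to 9.50).

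The other 7 genes were above Alas2 in hemoglobin-poor barcodes of every library. Cpox was at 232, 388, 185, and 209 CPM in barcodes under 2% and at 1120, 1181, 1213, and 1176 at 2% and over. Alad was at 133, 168.5, 143.5, and 158 and then at 594.5, 556, 611, and 532. Fech was at 70.1, 124, 50.5, and 67.5 and then at 597, 633, 491, and 496. All 3 were above 50 CPM in hemoglobin-poor barcodes of every library, where Alas2 was under 5. Urod was at 83.7 to 114 under 2% and 360 to 403 at 2% and over, Uros at 13.2 to 29.2 and 134 to 222, Ppox at 15.2 to 31.8 and 155.5 to 169, and Slc25a38 at 24.5 to 37.8 and 78.4 to 112. In spleen barcodes under 2%, Urod (83.7 in CS and 100 in TS) and Ppox (15.2 and 15.6) were below their free RNA levels (98.1 and 107 for Urod, 24.3 and 17.7 for Ppox), as were Alad and Slc25a38 in CS (151 and 24.7 in free RNA), while Cpox, Fech, and Uros were above theirs in every library. Stem and progenitor barcodes of CS and TS had Ppox at 12.02 and 11.91. For genes below their free RNA level, how much of the level was free RNA was not tested.

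The median log2 ratio of the members between the ranges was 2.27, 1.83, 2.71, and 2.49, and that of all genes with a mean of at least 10 CPM was -0.82, -0.65, -0.60, and -0.43. Hemoglobin itself took 30.05, 23.8, 24.2, and 16.3% of the UMIs at 2% and over, so calls were made with the globin UMIs left out of the totals. The medians were then 2.79, 2.21, 3.11, and 2.75, against -0.31, -0.26, -0.19, and -0.18 for all genes. 8 of the 9 members were higher by at least 1.5-fold in each library, against 21.8, 20.4, 25.1, and 22.7% of genes.

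Alas1, the exception, was at 18.0, 18.7, 14.6, and 17.0 CPM under 2% and at 13.8, 14.1, 4.18, and 9.30 at 2% and over. With globin left out its log2 ratio was 0.13 (-0.70 to 0.90), -0.02 (-0.77 to 0.72), -1.41 (-2.86 to -0.28), and -0.61 (-1.93 to 0.43). It was lower by at least 1.5-fold in CS and TS, as were 35.5% and 33.1% of genes, and its interval lay below 0 in CS, where 6 UMIs stood behind the upper range.

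The ALA synthases were also compared by the share of Alas2 in the UMIs of both genes. Under 2% hemoglobin the share was 19.4% in CBM (interval 11.1 to 30.5), 20% in TBM (10.4 to 33.0), 2.50% in CS (1.62 to 3.67), and 3.97% in TS (3.12 to 4.99). At 2 to 10% hemoglobin it was 84.1%, 85.5%, 96.6%, and 91.8%, and at 30% and over it was 99.25%, 99.4%, 99.8%, and 99.2%. Alas2 thus made most ALA synthase UMIs in the first range above the division. The share went with the rise of Alas2. With globin left out, the Alas1 interval between the ranges included 0 in all libraries but CS. These intervals rest on few UMIs and are wide, so they do not show that Alas1 was unchanged. Under 2% both genes were below their free RNA levels in every library.

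**Figure D2:**
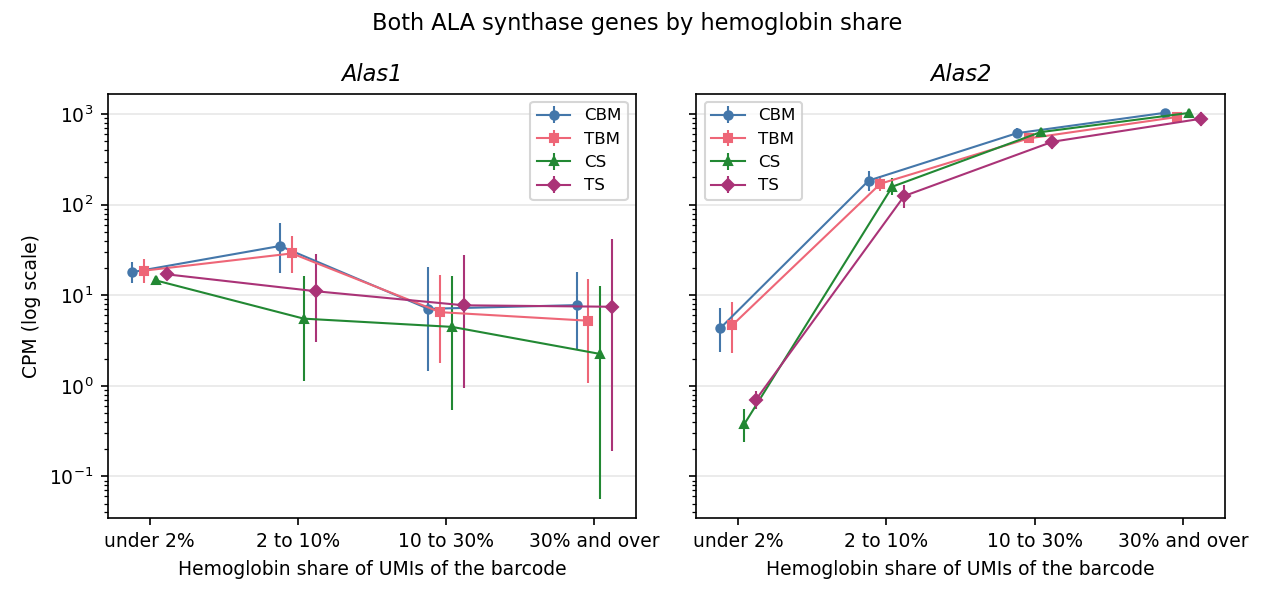
CPM (log axis) of Alas1 and Alas2 in erythroid barcodes of 4 hemoglobin ranges in each library, with exact 95% Poisson intervals. Alas2 was at 125 to 185 in the range of 2 to 10% and at 889 to 1036 at 30% and over, and Alas1 was at 2.25 to 7.79 at 30% and over.

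The members differed in the level they had at each point of the scale. With globin UMIs left out of the totals, each level was taken as a percent of the level at 30% hemoglobin and over in the same library. Alas2 stood at 7.89 to 9.83% of that level at 2 to 10% hemoglobin and at 36.2 to 40.0% at 10 to 30%. Fech stood at 18.4 to 28.5% and then 37.8 to 53.5%. Ppox stood at 26.1 to 31.1% and then 48.2 to 65.2%. Cpox stood at 39.7 to 55.5% and then 63.2 to 85.8%, and Alad at 36.9 to 49.6% and then 68.5 to 80.7%. At 2 to 10%, Alas2 was the lowest of the 8 genes in every library and Fech the next lowest in 3 of them, TBM being the exception, where Slc25a38 and Ppox were below Fech. These ranges hold 12 to 56 barcodes in a library, and the values for Uros (44.8 to 64.5% and then 51.9 to 101%) and Slc25a38 (27.1 to 74.6% and then 43.3 to 94.1%) spread widely between libraries.

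**Figure D3:**
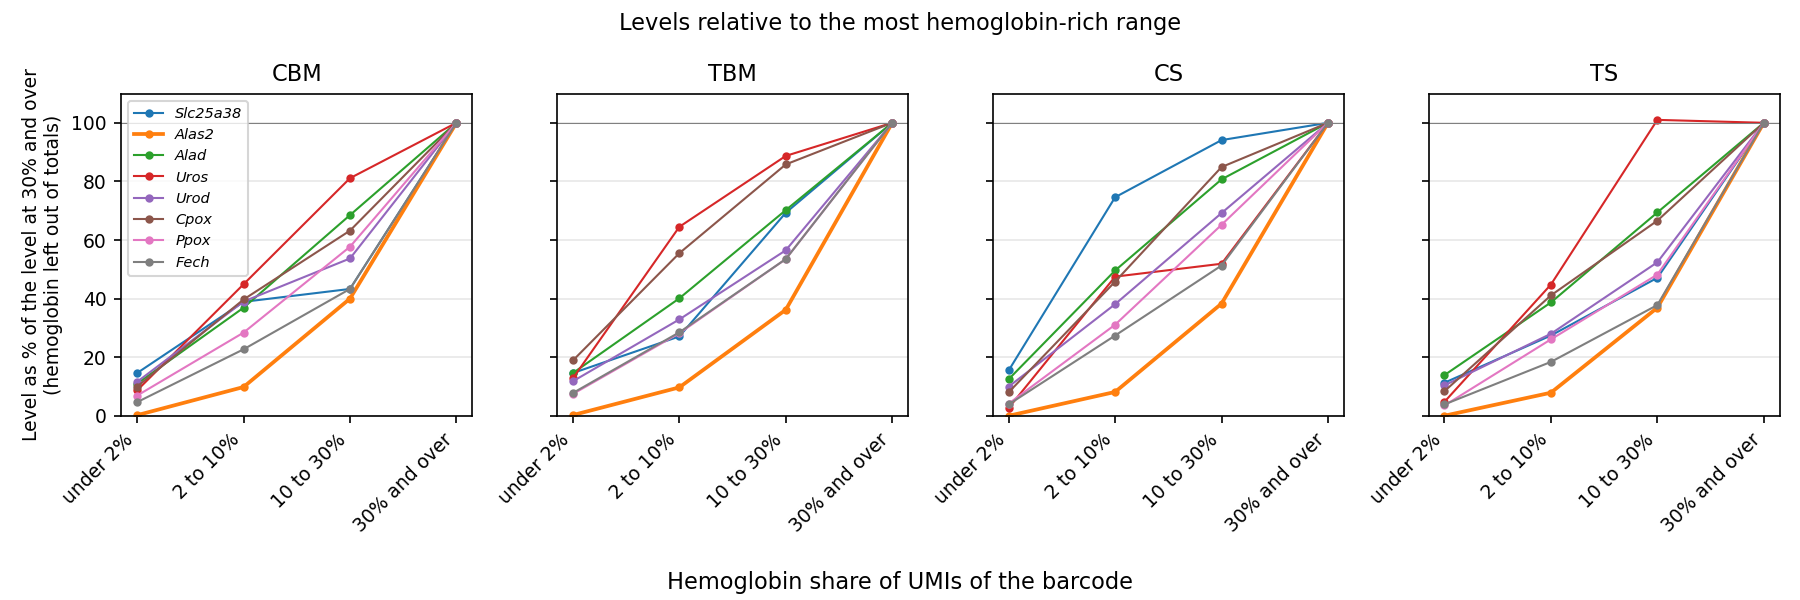
Level of each member but Alas1 by hemoglobin range, as a percent of its level at 30% and over in the same library, with globin UMIs left out of the totals; 1 panel for each library. Alas2 (thick line) is the lowest line in each panel, at 7.89 to 9.83% in the range of 2 to 10%.

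Tumor-bearing and control libraries were compared within each tissue. In the spleen, TS over CS gave a median log2 ratio of the members of 0.07 (all genes -0.01). 1 of the 9 members was lower by at least 1.5-fold, against 2.84% of genes with a mean of at least 10 CPM, and it was Alas2, at a log2 ratio of -1.81 (interval -1.99 to -1.63) and a mean below that minimum. This went with the smaller share of hemoglobin-rich barcodes in TS. The median turned to -0.11 with all 4 markers required and to -0.17 with the erythroid rule applied after thinning. Within the range under 2% the median was 0.18 and the sign for Alas2 turned, to 0.91 (0.23 to 1.63), which made it the 1 member higher by at least 1.5-fold there, against 1.0% of genes, at levels under 1 CPM. Fech was at 67.5 in TS and 50.5 in CS in that range, a log2 ratio of 0.42 (0.36 to 0.48), Urod at 0.26 (0.21 to 0.31), and Cpox at 0.18 (0.15 to 0.21).

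At 2% and over, TS over CS gave a median of -0.11 (all genes 0.11), and 1 member, Alas1, was higher by at least 1.5-fold, against 15.1% of genes, with 7 and 6 UMIs behind it (1.15, -0.64 to 3.002) and a mean below the minimum used for that percent. Alas2 was at 388 in TS and 577 in CS, a log2 ratio of -0.57 (-0.77 to -0.38). Globin made 16.3% of UMIs in this range in TS and 24.2% in CS, so the barcodes were not at the same point of the scale. With globin left out of the totals the median was -0.25 (all genes -0.03), 6 of the 9 intervals lay below 0, and 2 members were lower by at least 1.5-fold, against 12.1% of genes. These were Alas2 (-0.72, -0.91 to -0.52) and Uros (-0.60, -0.91 to -0.29). Within the narrower ranges, with all UMIs, the log2 ratio of Alas2 was -0.34 (-0.90 to 0.19) at 2 to 10%, -0.35 (-0.67 to -0.05) at 10 to 30%, and -0.21 (-0.52 to 0.08) at 30% and over, each with 14 to 28 barcodes in a library. In the same ranges Uros gave -0.88 (-1.42 to -0.36), 0.17 (-0.33 to 0.655), and -0.71 (-1.48 to -0.02). Fech gave -0.13 (-0.48 to 0.22), 0.01 (-0.30 to 0.32), and 0.53 (0.22 to 0.84), so it was higher in TS at 30% and over.

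In BM, TBM over CBM gave a median of 0.32 (all genes -0.05), and 1 member, Fech, was higher by at least 1.5-fold (0.61, 0.49 to 0.73), against 1.94% of genes. Cpox followed at 0.56 (0.49 to 0.64), Ppox at 0.43 (0.21 to 0.65), Urod at 0.35 (0.21 to 0.48), and Alad at 0.32 (0.21 to 0.43). Alas2 (0.12, -0.01 to 0.25), Alas1, Uros, and Slc25a38 had intervals that included 0. TBM had the larger share of hemoglobin-rich barcodes. The median was 0.004 with all 4 markers required and 0.13 with the erythroid rule applied after thinning. It was -0.042 with equal weight over the ranges under 2% and at 30% and over, the only ones with at least 50 barcodes in both libraries.

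Within the range under 2% the TBM median was 0.18, and Fech (0.83, 0.57 to 1.08) and Cpox (0.74, 0.60 to 0.89) were higher by at least 1.5-fold, against 3.59% of genes. In the same barcodes the 4 erythroid markers summed to 3262 CPM in TBM and 2145 in CBM, granulocyte-monocyte progenitor markers to 582 and 362, and megakaryocyte markers to 29.3 and 119, and their part in these ratios was not tested. At 2% and over the median was 0.01 and 0 members passed 1.5-fold in either direction, against 10.7% of genes higher and 4.85% lower. In that range Alas2 was at 530 in TBM and 713 in CBM (-0.43, -0.56 to -0.30) and Uros at 134 and 180 (-0.42, -0.68 to -0.16), with globin at 23.8% and 30.05% of UMIs. With globin left out of the totals the TBM median turned to -0.11 (all genes -0.03), all 9 members were below 0, and the intervals of Alas2, Uros, Alad, and Slc25a38 did not include 0. Within the narrower ranges, with all UMIs, Alas2 gave -0.11 (-0.58 to 0.37), -0.19 (-0.43 to 0.05), and -0.15 (-0.32 to 0.01). With globin left out, the 9 members were not all below 0 in each of these ranges. Cpox gave 0.30 (0.10 to 0.51), 0.26 (0.10 to 0.43), and -0.18 (-0.335 to -0.02). Fech gave 0.415 (0.08 to 0.76), 0.395 (0.15 to 0.64), and 0.09 (-0.10 to 0.27). Uros stayed below 0, at -0.095 (-0.63 to 0.46), -0.49 (-0.92 to -0.06), and -0.62 (-1.09 to -0.16). In both tissues the level of Alas2 was thus lower in the tumor-bearing library in each of the 3 narrower ranges, with 1 of the 6 intervals clear of 0, or 2 of the 6 with globin left out of the totals. Globin shares still differed within these ranges, at 3.84, 18.2, and 46.0% of UMIs in TS and 6.23, 20.2, and 50.2% in CS. They were 4.95, 19.5, and 49.8% in TBM and 5.04, 22.0, and 47.6% in CBM. The part of these gaps in the Alas2 ratios was not tested.

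The tissues were compared next, with the same libraries as above. CS over CBM gave a median of -1.27 (all genes 0.12), and 8 of the 9 members were lower by at least 1.5-fold, against 9.94% of genes. Alas2 was the lowest at -4.11 (-4.25 to -3.98), followed by Uros at -2.07 (-2.25 to -1.89), Fech at -1.93 (-2.03 to -1.83), and Ppox at -1.91 (-2.09 to -1.73), and Alas1 was at -0.21 (-0.55 to 0.14). TS over TBM gave a median of -1.77 (all genes 0.20), and 8 of the 9 were lower by at least 1.5-fold, against 12.5% of genes. Alas2 was at -6.04 (-6.22 to -5.87), Ppox at -2.47, Uros at -2.38, Fech at -2.30, and Alas1 at 0.02 (-0.32 to 0.39).

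These gaps were smaller between barcodes of like hemoglobin share. Under 2%, CS over CBM gave a median of -0.47 and 4 of the 9 lower by at least 1.5-fold (Alas2, Uros, Ppox, and Slc25a38), against 8.87% of genes, Alas2 being below the minimum mean. TS over TBM gave -0.88 and 5 of the 9 lower (Alas2, Uros, Ppox, Cpox, and Fech), against 8.71%, with the same limit for Alas2. Alad was at 0.11 (-0.03 to 0.25) and -0.09 (-0.24 to 0.05) in these comparisons. The hemoglobin-poor barcodes of BM were not free of globin, which made 0.169% and 0.166% of their UMIs in CBM and TBM against 0.0116% and 0.0121% in CS and TS.

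The hemoglobin-poor barcodes of the tissues also differed in the markers of other classes. Granulocyte-monocyte progenitor markers summed to 362 and 582 CPM in CBM and TBM and to 76.6 and 204 in CS and TS, stem and progenitor markers (Hlf, Mecom, Meis1, Cd34, Flt3, and Adgrg1) to 199 and 149 against 72.5 and 47.1, and megakaryocyte markers (Pf4, Gp9, Gp1bb, Gp6, and Itgb3) to 119 and 29.3 against 12.3 and 4.30. At 2% and over, granulocyte-monocyte progenitor markers summed to 871 and 861 CPM in CBM and TBM and to 82.95 and 114 in CS and TS, and 36 of 92, 75 of 125, 5 of 63, and 4 of 51 barcodes had at least 3 of them. In those barcodes the 9 members summed to 3748, 3704, 4445, and 2694 CPM, and in the barcodes with fewer to 4003, 3732, 3717, and 3446. The part of these markers in the differences between tissues was not tested.

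At 2% and over, CS over CBM gave a median of -0.10 and TS over TBM gave -0.16, with 1 member lower by at least 1.5-fold in each, Alas1 (-1.72, -3.33 to -0.34, and -0.60, -2.05 to 0.64), against 5.36% and 6.98% of genes, Alas1 being below the minimum mean used for that percent in CS over CBM. Cpox was at 0.11 (0.02 to 0.21) and -0.01 (-0.12 to 0.11), Alad at 0.04 (-0.10 to 0.18) and -0.06 (-0.23 to 0.10), and Urod at -0.03 (-0.21 to 0.14) and -0.16 (-0.37 to 0.04). Alas2 was lower in spleen, at -0.31 (-0.44 to -0.17) and -0.45 (-0.64 to -0.26), as was Fech, at -0.28 (-0.43 to -0.13) and -0.35 (-0.53 to -0.18). Uros went the other way, at 0.31 (0.06 to 0.55) and 0.27 (-0.05 to 0.59).

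The tissue ratios at 2% and over depended on the globin share of the totals and on the width of the range. With globin left out of the totals the medians were -0.22 and -0.30 (all genes 0.02 in both), and 0 intervals lay above 0 in either comparison. Uros was then at 0.19 (-0.05 to 0.44) and 0.14 (-0.19 to 0.46), and Cpox at -0.001 (-0.10 to 0.10) and -0.14 (-0.255 to -0.03). Alas1 was lower by at least 1.5-fold in CS over CBM, against 9.74% of genes, and Alas1 and Alas2 were in TS over TBM, against 11.6%. In the ranges of 2 to 10%, 10 to 30%, and 30% and over, with all UMIs, Alas2 gave -0.22 (-0.72 to 0.28), 0.04 (-0.21 to 0.29), and -0.005 (-0.18 to 0.17) for CS over CBM. It gave -0.45 (-0.99 to 0.06), -0.12 (-0.43 to 0.175), and -0.07 (-0.365 to 0.22) for TS over TBM, so none of the 6 Alas2 intervals was clear of 0. Fech gave 0.04 (-0.32 to 0.40), 0.06 (-0.21 to 0.34), and -0.29 (-0.50 to -0.08) for CS over CBM, and -0.51 (-0.84 to -0.18), -0.36 (-0.65 to -0.08), and 0.22 (-0.08 to 0.51) for TS over TBM. Fech was thus not lower in spleen in every range. With globin left out, some Uros and Cpox intervals lay above 0 in these ranges. Uros gave 0.63 (0.12 to 1.16), -0.09 (-0.53 to 0.34), and 0.55 (0.16 to 0.94) for CS over CBM. For TS over TBM it gave -0.19 (-0.75 to 0.35), 0.53 (0.03 to 1.01), and 0.34 (-0.47 to 1.08). Cpox gave 0.185 (-0.03 to 0.40), 0.41 (0.24 to 0.58), and -0.02 (-0.18 to 0.14), and then -0.16 (-0.345 to 0.03), -0.09 (-0.27 to 0.09), and 0.275 (0.03 to 0.52).

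**Figure D4:**
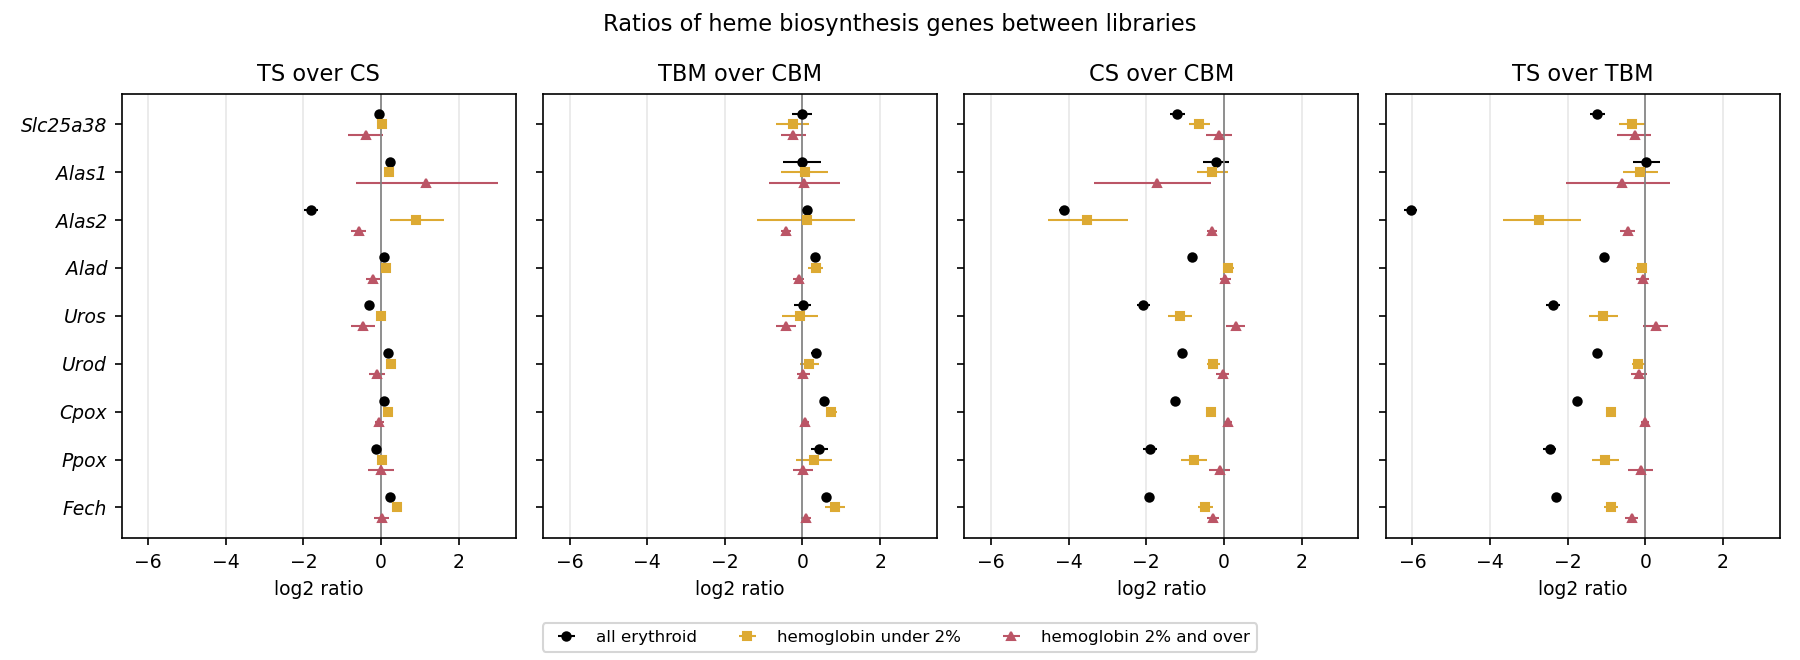
log2 ratios of the 9 members for 4 comparisons of libraries, in all erythroid barcodes (circles), barcodes under 2% hemoglobin (squares), and barcodes at 2% and over (triangles), with exact 95% intervals of the counts. For CS over CBM and TS over TBM the median moves from -1.27 and -1.77 over all barcodes to -0.10 and -0.16 at 2% and over.

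Detection was also counted by barcode at equal depth. After each barcode was thinned to 3000 UMIs, with 5 CS and 6 TS erythroid barcodes that were shallower left out, Alas2 was detected in 79.35, 73.6, 85.7, and 62.75% of barcodes at 2% and over. Under 2% it was detected in 0.8, 1.28, 0.230, and 0.140%, and in stem and progenitor barcodes in 0.233, 0.296, 0, and 0.183%, where 9, 15, 2, and 1 shallower barcodes were left out and 0 of 252 allows up to 1.45%. The median number of members detected in a thinned barcode was 5.5, 5, 6, and 5 at 2% and over and 1, 2, 1, and 1 under 2%. Without thinning, Alas2 was detected in 98.9, 97.6, 100, and 96.1% of barcodes at 2% and over, in 4.0, 11.5, 1.76, and 2.05% under 2%, at median depths of 18050, 24080, 49480, and 34610 UMIs, and in 0.456, 0.850, 0, and 0.183% of stem and progenitor barcodes, at 12780, 11280, 18520, and 11280.

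Outside the erythroid barcodes, the members other than Alas1 were low in every class with at least 50 barcodes in a library. These classes were granulocyte-monocyte progenitor, stem and progenitor, monocyte, megakaryocyte, mast or basophil, and B lineage barcodes, each with at least 3 markers of its own list and of no other, and with erythroid barcodes they made 21 pairs of class and library. Alad ranged from 12.7 to 55.4 CPM outside erythroid barcodes, Cpox from 11.7 to 44.3, Fech from 9.75 to 29.6, and Urod from 15.9 to 40.0. The free RNA of the same libraries held Alad at 51.5 to 151, Cpox at 37.8 to 134, Fech at 31.2 to 54.1, and Urod at 49.0 to 107, and 9 of 136 values of the 8 members lay above free RNA, 5 of Slc25a38, 3 of Ppox, and 1 of Cpox. Slc25a38 in CS monocyte barcodes (30.7, interval 24.6 to 37.9) and Ppox in TS mast or basophil barcodes (19.5, 7.16 to 42.45, from 6 UMIs) lay above the erythroid level of the same library. Both intervals overlapped the erythroid ones, which were 24.9 to 27.4 for Slc25a38 in CS and 15.9 to 17.5 for Ppox in TS. What part of these low levels was free RNA was not tested. CS monocyte barcodes had the markers Csf1r and F13a1 at 20.7 and 22.5 CPM, against 191 and 729 in CBM. Ccr2, Ms4a6c, and Ly86 were at 245, 216, and 245, against 857, 1020, and 390, so this label is less sure in CS.

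Alas1 went the other way and was highest in granulocyte-monocyte progenitor barcodes that met no other rule. It was at 300 CPM in CBM (interval 284 to 317), 294 in TBM (285 to 304), 272 in CS (244 to 302), and 238 in TS (224 to 252), from 287, 723, 50, and 193 barcodes. These levels were above those of free RNA, which were 120, 146, 32.8, and 42.7. The TS interval lay below those of CBM and TBM. Most barcodes that met the rule of this class also met another, and with these kept (2098, 3458, 365, and 1079 barcodes) Alas1 was at 133, 162, 137, and 117, still above free RNA. Under that rule Alas1 in CBM was higher in monocyte barcodes (146). The closest of the other classes compared was at 157 in TBM (mast or basophil), 128 in CS (monocyte), and 95.6 in TS (mast or basophil). A barcode can count in several of these classes. Classes with fewer than 50 barcodes of that class alone were not compared. Among them were the monocyte barcodes of TBM and TS, 985 and 268 under that rule, so no class is shown to be highest there. In all other classes, with barcodes of several classes left out again, Alas1 was at 10.7 to 64.2, and it was at 57.2 in B lineage and 64.2 in mast or basophil barcodes of TBM, the library with the most Alas1 in its free RNA. After thinning, which left out 34, 145, 7, and 6 shallower barcodes, Alas1 was detected in 41.1, 48.8, 25.6, and 37.4% of granulocyte-monocyte progenitor barcodes and in 3.87 to 7.83% of erythroid barcodes. Without thinning the shares were 61.7, 68.5, 52.0, and 75.65% against 21.7 to 45.9%.

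In the spleen libraries, the Alas1 level of hemoglobin-poor erythroid barcodes moved with granulocyte-monocyte markers. Among barcodes under 2% hemoglobin, those with at least 3 of these markers had Alas1 at 20.4, 23.9, 20.3, and 39.3 CPM, and those with fewer had it at 15.9, 11.3, 14.3, and 14.6. The intervals lay apart in CS (16.0 to 25.4 against 13.4 to 15.3) and in TS (35.5 to 43.4 against 13.8 to 15.4), and overlapped in CBM (13.8 to 29.2 against 10.6 to 23.0) and TBM (16.5 to 33.6 against 5.62 to 20.1). At 2% and over Alas1 was at 23.8, 14.8, 10.2, and 11.2 with the markers and at 6.315, 13.2, 3.74, and 9.05 with fewer, from 1 to 16 UMIs each, and the intervals overlapped in every library. Under 2% the 9 members summed to 734, 838, 454, and 580 in the barcodes with these markers and to 583, 1012, 535, and 610 in those with fewer.

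Alas2 was at 0 to 2.27 CPM in each class outside erythroid barcodes, from at most 5 UMIs, with the exception of 1 class in TBM. There the granulocyte-monocyte progenitor barcodes held 148 Alas2 UMIs, a level of 12.7, which was below the free RNA level of 17.8. 140 of the 148 lay in 13 of the 723 barcodes, those with at least 2% hemoglobin, where Alas2 was at 1226 CPM and Alas1 at 17.5. In the other 710 barcodes 8 UMIs remained. Barcodes at 2% hemoglobin and over that missed the erythroid rule numbered 11, 22, 10, and 3. Alas2 was at 632, 1119, 588, and 310 CPM in them, from 95, 253, 59, and 15 UMIs. All erythroid barcodes held 998, 988, 853, and 363 Alas2 UMIs. In all 4 libraries hemoglobin-rich barcodes were thus left out of the erythroid levels and of the ratios between libraries. How the Alas2 ratios, that of TBM over CBM among them, would move with these barcodes was not tested.

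**Figure D5:**
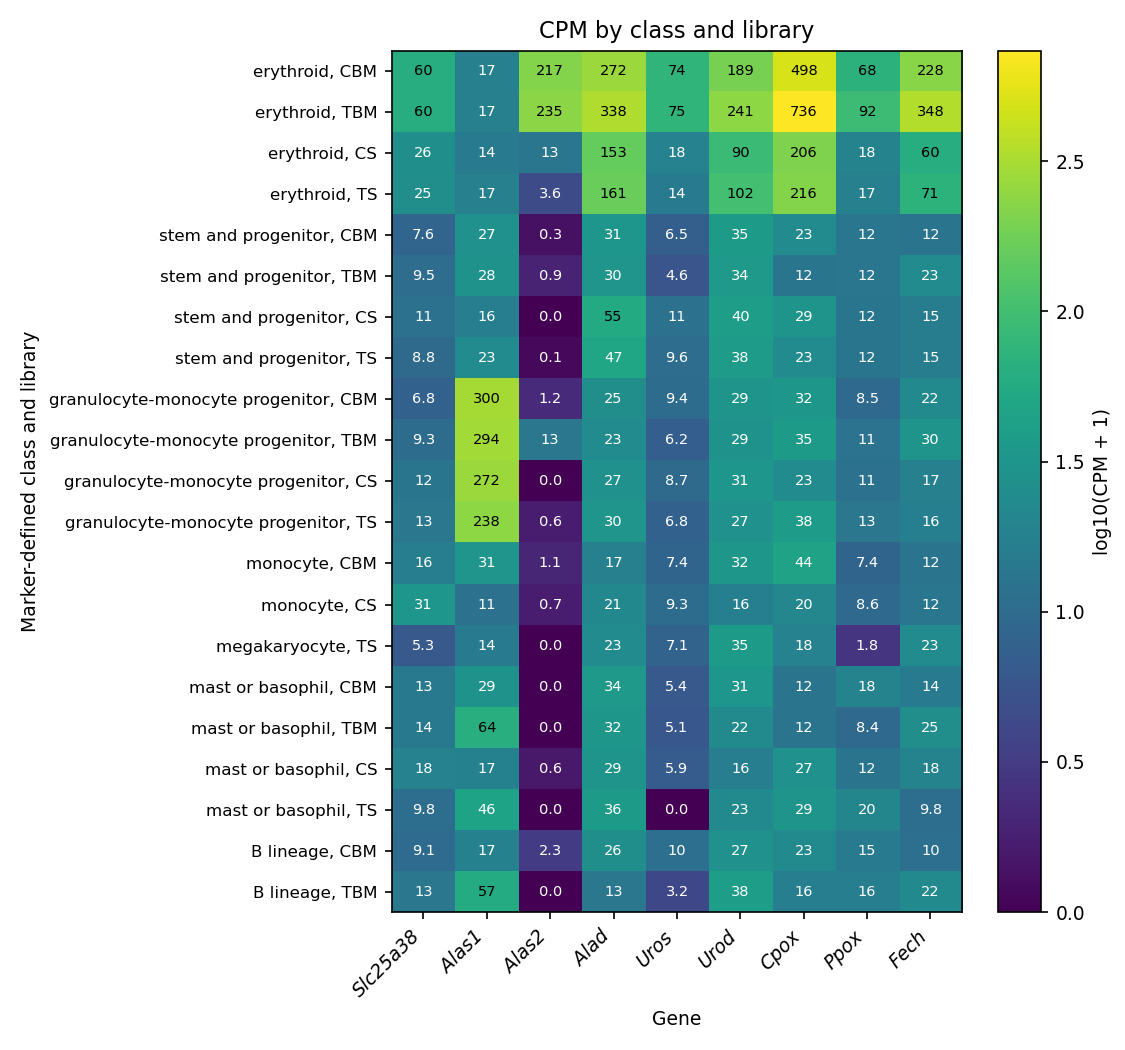
CPM of the 9 members in each marker-defined class with at least 50 barcodes in a library; color is log10 of the value plus 1, and each cell gives the value. Alas1 is highest in the 4 granulocyte-monocyte progenitor rows (238 to 300), and each other member is highest in the erythroid rows of CBM and TBM.

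Genes that feed the pathway were taken from lists and compared between hemoglobin ranges, with globin UMIs left out of the totals, against 21.8%, 20.4%, 25.1%, and 22.7% of genes higher and 39.3%, 36.3%, 35.5%, and 33.1% lower. Counts are over all genes of a list, also those below the minimum mean that the background used. The levels given are CPM of all UMIs. Of 9 other mitochondrial porphyrin and heme genes, 6 were higher by at least 1.5-fold at 2% hemoglobin and over in each library, and 1, Pgrmc1, was lower in each. The median log2 ratio of the list was 2.19, 1.53, 2.90, and 2.11. Tmem14c, which helps protoporphyrinogen into the matrix, was at 489, 598.5, 347, and 370 CPM under 2% and at 1567, 1807, 2015, and 2085 at 2% and over. Abcb10, a mitochondrial transporter of the inner membrane, was at 61.1, 81.9, 31.2, and 34.05 and then at 402, 385, 376, and 310. Hebp1, a heme-binding protein, was at 41.25 to 143 and then at 386 to 516, and Slc25a39, a mitochondrial carrier, at 55.8 to 66.9 and then at 98.35 to 136.

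Of 9 genes of iron supply and iron-sulfur assembly, 6 were higher in each library, and 2, 1, 1, and 0 were lower, with medians of 1.20, 0.79, 1.24, and 0.75. Slc25a37, the mitochondrial iron importer mitoferrin, was at 44.4, 40.8, 24.4, and 16.6 under 2% and at 1059, 909, 943, and 754 at 2% and over. Tfrc was at 215.5, 369, 187, and 232 and then at 1204, 1048, 1260, and 1002. Glrx5, of iron-sulfur assembly, was at 336, 465, 346, and 381 and then at 973, 1025, 1153, and 1085.

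The genes that supply the substrates of ALA synthase did not follow as a group. Of 9 genes, 2, 1, 3, and 3 were higher and 3, 5, 5, and 3 lower, with medians of -0.34, -0.63, -0.47, and -0.49. Suclg1, a subunit of the ligase of succinyl-CoA, was at 134, 150, 183, and 210 under 2% and at 34.1, 44.0, 38.3, and 85.1 at 2% and over, and Suclg2, another subunit, at 69.8 to 90.1 and then at 10.15 to 23.9. Dlst and Ogdh, which make succinyl-CoA, were at 79.7 to 117 and 76.9 to 83.6 and then at 77.6 to 115 and 72.7 to 101. Slc6a9, the glycine transporter of the cell membrane, was the member of this list with the largest ratio and was named after its values were seen. It was at 2.17, 2.97, 0.420, and 0.387 and then at 87.0, 71.1, 55.8, and 55.8.

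Of 6 genes of heme export and breakdown, 4 were higher in each library, and 1, 2, 2, and 0 were lower, with medians of 1.18, 0.93, 1.71, and 1.30. Blvrb, a biliverdin reductase, was at 592, 822, 582, and 764 under 2% and at 1974, 2090, 2459, and 2492 at 2% and over. Abcg2, a porphyrin exporter, was at 54.3, 70.9, 46.2, and 60.9 and then at 310, 283, 315, and 292. Blvra was at 36.9 to 44.2 and then at 53.2 to 64.05, and Hmox2 at 23.6 to 30.8 and then at 10.9 to 17.3.

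Of 8 erythroid transcription factors, 6, 5, 6, and 6 were higher and 1, Ldb1, was lower in each library. Gata1 was at 112, 96.4, 93.3, and 82.5 under 2% and at 123, 127, 129, and 125 at 2% and over, and Tal1, its partner, at 124, 115, 104, and 97.2 and then at 326, 260.5, 263.5, and 255. Lmo2 was at 201 to 333 and then at 303 to 352, and Zfpm1 at 196 to 240 and then at 352 to 448. The 4 red cell membrane genes reported were all higher in each library, with medians of 4.23, 3.48, 6.46, and 5.93. Slc4a1, the band 3 anion exchanger, was at 18.6, 26.7, 0.780, and 1.01 and then at 1694, 1598, 1472, and 1073. Of 4 early progenitor genes, 3, 3, 4, and 3 were lower and 0 higher, and Kit, the receptor by which cells were sorted, was at 201, 167, 162, and 171 and then at 9.425, 9.77, 6.27, and 18.6.

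Between tissues over all erythroid barcodes, the same lists were divided. The 4 red cell membrane genes and all 4 adult globins were lower by at least 1.5-fold in CS over CBM and in TS over TBM. The background was 9.94% and 12.5% of genes lower and 11.2% and 21.5% higher. Of the 9 other mitochondrial heme genes 5 were lower and 1 higher in each. Of the 9 substrate genes 1 was lower and 2 higher in CS over CBM, and 1 was lower and 3 higher in TS over TBM. Of the 9 iron genes 3 and 4 were lower and 0 higher. Of the 6 genes of heme export and breakdown 3 were lower in each, and 0 and 2 were higher. Of the 8 erythroid transcription factors 3 were lower and 0 higher in each. Of the 4 early progenitor genes 2 were lower in each, and 1 and 2 were higher. At 2% hemoglobin and over, 13% and 16.5% of all genes were higher and 5.36% and 6.98% lower. There 0 of the red cell membrane, other mitochondrial heme, iron, heme export, and transcription factor genes were lower by at least 1.5-fold in either comparison. The adult globins, whose summed share defines this range, had 0 and 1 lower. The substrate genes had 2 and 0 lower, and the early progenitor genes 3 and 2. Only 1 and 2 of the 4 early progenitor genes met the minimum mean that the background used. Of the heme export genes 2 and 3 of 6 were higher, of the substrate genes 0 and 3, of the other mitochondrial heme genes 1 in each, of the iron genes 1 and 0, and of the early progenitor genes 0 and 1. With globin left out of the totals, 9.74% and 11.6% of all genes were lower in CS over CBM and TS over TBM. The red cell membrane genes then had 0 and 2 of 4 lower, and the iron genes 0 and 1 of 9. Of the substrate genes 2 and 0 were lower, and of the early progenitor genes 3 and 2. The other mitochondrial heme, heme export, and transcription factor genes had 0 lower in either.

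Genes whose levels were most like those of the members over the 21 pairs of class and library were named by Pearson correlation of log2(CPM + 1), as a description, since the pairs share libraries and depths. For Alas2 they were Dmtn (0.97), Trim10 (0.95), Slc4a1 (0.94), Hbb-bs (0.92), and Hba-a2 (0.91), of which Dmtn and Slc4a1 encode red cell membrane proteins and Hbb-bs and Hba-a2 encode adult globins. For Alas1 they were Trem3 (0.95), Cldn15 (0.95), Dmkn (0.94), Ctsg (0.94), and Lta4h (0.93), of which Ctsg encodes cathepsin G of neutrophil granules and is 1 of the markers that define the granulocyte-monocyte class. For the 7 other members summed they were Cldn13, Ubac1, Paqr9, Ank1, and Add2 (0.95 to 0.96), of which Ank1 and Add2 encode proteins of the red cell membrane skeleton. Among the members, Alas2 had a correlation of 0.76 to 0.90 with each of the 7 others and of -0.18 with Alas1, and Alas1 had -0.39 to -0.17 with each of the other 8.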

How the data were processed

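4 droplet scRNA-seq libraries (10x Genomics 3′ v3.1) were used, 1 each for CBM, TBM, CS, and TS. The deposited values are UMI counts for each gene and barcode, for all barcodes, which the authors made with Cell Ranger 4.0 on mm10 and which are neither filtered nor normalized. From these, barcodes with at least 1000 genes and at most 10% mitochondrial UMIs were kept, doublets were not called, and no free RNA was removed. A barcode belonged to a class when at least 3 of its markers had a UMI, and a non-erythroid barcode of more than 1 class was left out. UMIs of a gene were summed over barcodes and divided by all their UMIs, scaled to 1000000 (CPM). Library totals were 101811035 (CBM), 135207987 (TBM), 145301019 (CS), and 176094297 (TS) UMIs. Levels have exact Poisson, ratios exact conditional binomial, and shares exact binomial intervals at 95%, which cover counting error only. The ratio code was tested on simulated data. Background percents count genes with a mean of at least 10 CPM past 1.5-fold. All 9 members were named, up to 4 genes of each list by their level, and the 5 genes most like each pattern. The members and lists were chosen with earlier results of these data known, and 4 further genes are not reported here, in the lists or among the genes most like each pattern. 13 alternatives and 2 added after seeing the data were run. Python 3.11.15, numpy 2.4.6, and scipy 1.17.1 were used.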

Additional observations from a re-analysis of the deposited data

Results flagged for a closer look

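Ppox went opposite ways with the tumor in the tissues over all erythroid barcodes, at a log2 ratio of -0.13 for TS over CS (interval -0.23 to -0.02) and 0.43 for TBM over CBM (0.21 to 0.65), a difference of -0.55, and this difference was not tested. Under 2% hemoglobin the ratios were 0.04 (-0.08 to 0.15) and 0.29 (-0.18 to 0.76), and at 2% and over they were -0.006 (-0.34 to 0.32) and 0.01 (-0.24 to 0.26), and all 4 of these intervals included 0.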

How the results depend on the processing

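The medians over the 9 members for CS over CBM (-1.27) and TS over TBM (-1.77) stayed below 0 under all 14 alternatives, and those for TBM over CBM (0.32) and TS over CS (0.07) did not stay on 1 side of 0. In the order TS over CS, TBM over CBM, CS over CBM, and TS over TBM, the medians were 0.18, 0.17, -0.47, and -0.88 under 2% hemoglobin only, -0.11, 0.011, -0.10, and -0.16 at 2% and over only (both added after seeing the data), and 0.18, -0.042, -0.47, and -0.88 with equal weight over hemoglobin ranges of at least 50 barcodes in both libraries, which for all but TBM over CBM left only the range under 2%. For TBM over CBM, equal weight left the ranges under 2% and at 30% and over. The erythroid rule after thinning gave -0.17, 0.13, and -1.89 for TS over CS, TBM over CBM, and TS over TBM. A rule of all 4 markers gave -0.11, 0.004, and -1.43 for TS over CS, TBM over CBM, and CS over CBM. CS over CBM and TS over TBM were -1.40 and -1.92 without globin in the totals, -1.40 and -1.97 without barcodes of another class, -1.40 and -1.95 without the deepest 5%, and -1.58 and -1.995 as means over barcodes, where TS over CS was 0.022. CS over CBM was -1.15 at a minimum of 2000 genes, and TS over TBM was -1.85 with free RNA subtracted and -1.82 at 5% mitochondrial UMIs. Of the ratios of at least 1.5-fold, 8 changed sign under an alternative, those for Alas2 in TS over CS (0.91 under 2% and with equal weight), for Alad in CS over CBM (0.11 under 2% and with equal weight, and 0.04 at 2% and over), and, at 2% and over, for Uros in CS over CBM (0.31) and TS over TBM (0.27) and for Cpox in CS over CBM (0.11). Ratios under 1.5-fold changed sign 46 times, 26 of them in TBM over CBM, where Alas2 went from 0.12 to -0.43 and Alad from 0.32 to -0.097 at 2% and over. Keeping barcodes of several classes moved 59 of 153 class levels out of their intervals, Alas1 in granulocyte-monocyte progenitor barcodes among them in every library. No paired analysis was possible because each group is 1 library. Depth limits Alas2 under 2% (11 to 71 UMIs) and Alas1 at 2% and over (6 to 26 UMIs).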
